A study of Mus musculus with 4 samples.

Results

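Natural killer (NK) cell transcripts were examined in the lungs of mice in a treadmill exercise and tumor experiment. The 9 genes were taken by symbol from the first column of the deposited lung tables, where each had 1 of the 23282 rows: Ncr1, Klrb1c, Klrk1, Klrd1, Klre1, Klrg1, Eomes, Tbx21 and Nkg7. They were chosen as genes that mark NK cells, with earlier results of these data known. No measured value entered the rule that took their rows.

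The 4 lung libraries came from male CDF1 mice, an F1 hybrid of BALB/c and DBA/2, with 1 library for each group. The groups were healthy mice without exercise, E(-)T(-), healthy mice with treadmill exercise, E(+)T(-), mice given CT26 cells without exercise, E(-)T(+), and mice given CT26 cells with treadmill exercise, E(+)T(+). CT26 is a mouse colorectal carcinoma line of BALB/c origin, and it entered through the tail vein, a route that seeds the lung. The labels give post natal day 28 and 10 mice in a group. The study gives that age as the one at purchase, and the mice were killed at the end of the experiment that followed, so it is not the age at sampling. The study sampled the muscle of 1 representative mouse per group and treated the lung in a like way, which points to 1 mouse per lung library without stating it. There was therefore no replicate of any group. Differences between libraries below have no replicate check, and their intervals cover counting error alone.

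NK cells are innate lymphocytes that kill tumor and infected cells without prior priming, and the lung holds a large resident and circulating pool of them. Their activity is set by the sum of signals from activating receptors, such as NKp46 (Ncr1) and NKG2D (Klrk1), and inhibitory receptors that sense MHC class I, such as the CD94/NKG2 pair (Klrd1 with Klrc1). The T-box factors T-bet (Tbx21) and Eomes drive their maturation, and cytotoxic granules carry out the killing. None of these genes is fully restricted to NK cells. Nkg7, Klrd1, Klrk1, Klrg1, Eomes and Tbx21 are also used by activated CD8 T cells, while Ncr1 and Klrb1c (NK1.1) are the more NK-restricted of the list. In bulk lung RNA, fewer NK cells and less RNA per cell cannot be told apart.

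Each library held between 9354547 (E(-)T(+)) and 13367981 (E(+)T(+)) recovered reads. Hemoglobin genes took 14.3% and 14.2% of reads in tumor-free E(-)T(-) and E(+)T(-), and 1.43% and 31.4% in tumor-bearing E(-)T(+) and E(+)T(+). A floor of 3 reads corresponded to between 0.224 and 0.321 CPM. The 4 tumor-associated genes Krt20, Crabp1, Etv4 and Osr2, picked for having no reads in E(-)T(-), summed to 0 and 228 reads in tumor-free E(-)T(-) and E(+)T(-), and 15528 and 1012 in tumor-bearing E(-)T(+) and E(+)T(+). The E(+)T(-) library, labelled as tumor-free, thus held reads of these genes, at a median of 1.48% of their level in E(-)T(+) over 9 genes picked in the same way. Taking this share of E(-)T(+) out of E(+)T(-) changed the side of the 2-fold limit for none of the 9 NK genes, in either comparison that uses E(+)T(-). Each of the 9 had between 0 and 36 reads in E(-)T(+), so this removal could hardly move them and is no check on their differences.

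Coordinates are from GENCODE M21 on mm10, the build in the submitters' processing notes. Klre1 (chr6:129577905-129585827), Klrd1 (chr6:129591782-129598775) and Klrk1 (chr6:129610323-129623864) are the 3 genes annotated across a span of 46.0 kb of the NK gene complex. Klrb1c (chr6:128778485-128789215) and Klrg1 (chr6:122270596-122282882) lie on the same chromosome, which thus carries 5 of the 9 genes. The others are Ncr1 (chr7:4337724-4345164), Nkg7 (chr7:43437073-43438249), Eomes (chr9:118478212-118486132) and Tbx21 (chr11:97098071-97115331). All 9 are protein-coding. Klrb1c overlaps Gm44511 on the same strand and Eomes overlaps Gm33460 on the other strand, and neither of these had a row of its own.

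The 250 bases before the start site were taken from RefSeq (GRCm38.p6) for the 7 genes that matched: Ncr1, Klrb1c, Klrk1, Klre1, Nkg7, Eomes and Tbx21. They were searched on both strands for 3 short motifs of factors that act in NK cells. The RUNX core TGTGGT, which reads ACCACA on the other strand, was present in 5 of the 7 genes, namely Ncr1, Klrb1c, Klrk1, Klre1 and Nkg7, and in 14.0% of all 32851 promoters. Ncr1 and Klre1 have more than 1 start in that table, and counted by start, as the background is, 6 of 9 starts matched, with a Klre1 start that did not. The T-box letters AGGTGT, or on the other strand ACACCT, were present in 1 of the 7, Nkg7, and in 11.8% of all promoters. The ETS letters GGAAGT, or on the other strand ACTTCC, were present in 2 of the 7, Klrb1c and Tbx21, and in 19.7% of all promoters. No match of one motif overlapped a match of another. A match describes the letters in the window and not a bound site. Printed here are a promoter of each receptor gene and the granule gene whose window is free of annotated exons or could be ended before the first one, with the RUNX letters in capitals, followed by both T-box factor genes, where no RUNX match was found. They are written 5′ to 3′ on the strand of the gene. The Ncr1 window lies at chr7:4337465-4337714 (+ strand) with matches 176 and 41 bases before the start, the Klrk1 window at chr6:129623865-129624114 (- strand) with a match 129 bases before the start, and the Nkg7 stretch at chr7:43436888-43437072 (+ strand) with a match 83 bases before the start and an end 65 bases before it, where GENCODE has an exon. The Eomes window lies at chr9:118477939-118478188 (+ strand) and the Tbx21 window at chr11:97115332-97115581 (- strand).
Ncr1: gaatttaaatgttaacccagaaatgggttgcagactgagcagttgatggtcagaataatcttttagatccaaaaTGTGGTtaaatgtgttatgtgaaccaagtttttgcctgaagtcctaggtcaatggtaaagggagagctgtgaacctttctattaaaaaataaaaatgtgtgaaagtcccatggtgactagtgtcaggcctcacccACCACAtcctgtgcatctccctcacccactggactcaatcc
Klrk1: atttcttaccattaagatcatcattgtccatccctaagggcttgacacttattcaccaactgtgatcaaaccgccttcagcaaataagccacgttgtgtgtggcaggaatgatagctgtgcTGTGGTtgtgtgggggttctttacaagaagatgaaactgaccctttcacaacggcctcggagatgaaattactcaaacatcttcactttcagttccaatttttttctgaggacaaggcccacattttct
Nkg7: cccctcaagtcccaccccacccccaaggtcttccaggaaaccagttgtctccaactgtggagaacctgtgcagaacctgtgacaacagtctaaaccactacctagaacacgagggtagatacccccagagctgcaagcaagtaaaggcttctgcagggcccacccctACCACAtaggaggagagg
Eomes: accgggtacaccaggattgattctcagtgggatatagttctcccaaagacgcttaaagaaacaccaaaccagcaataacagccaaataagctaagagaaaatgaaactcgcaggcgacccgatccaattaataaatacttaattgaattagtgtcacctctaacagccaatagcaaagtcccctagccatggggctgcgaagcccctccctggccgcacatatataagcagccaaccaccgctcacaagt
Tbx21: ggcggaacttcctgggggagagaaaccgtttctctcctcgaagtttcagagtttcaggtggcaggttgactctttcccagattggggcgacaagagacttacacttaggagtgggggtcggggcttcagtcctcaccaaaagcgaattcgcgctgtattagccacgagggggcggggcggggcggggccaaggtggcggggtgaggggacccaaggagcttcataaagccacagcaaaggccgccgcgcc

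The summed NK signal was high in both tumor-free libraries and low in both tumor-bearing libraries. The 9 genes together had 803 and 720 reads in tumor-free E(-)T(-) and E(+)T(-), and 147 and 149 in tumor-bearing E(-)T(+) and E(+)T(+). In summed normalized counts, the authors' read counts adjusted to a common library size, these were 683, 662, 162 and 175 in the same order. With E(-)T(-) set to 100%, E(+)T(-) stood at 96.9%, E(-)T(+) at 23.6% and E(+)T(+) at 25.6%. Nkg7 supplied many of the reads. Without it the other 8 genes stood at 104%, 26.6% and 19.6% of E(-)T(-) in the same order, so that E(+)T(+) then came below E(-)T(+). Scaling by library totals also gave that order for all 9 genes, with 15.7 CPM in E(-)T(+) and 11.1 CPM in E(+)T(+). These totals include hemoglobin reads, 1.43% of E(-)T(+) and 31.4% of E(+)T(+). The same scaling moved the median of all tested genes to -0.59 in E(+)T(+) against E(-)T(+), so the order of the 9-gene sums depended on the scaling.

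**Figure D1:**
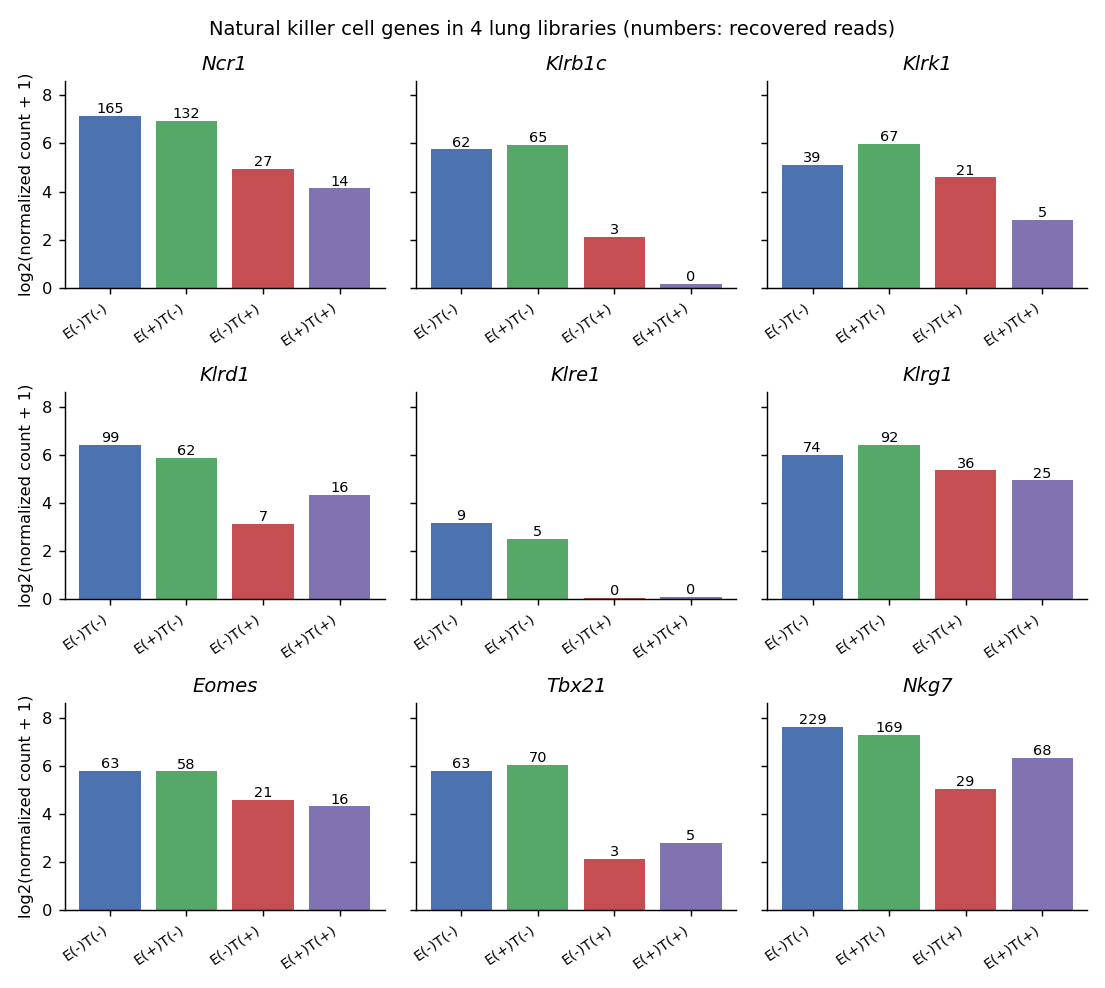
Deposited log2(normalized count + 1) of each of the 9 NK cell genes (vertical axis) in the 4 lung libraries (horizontal axis), with the recovered reads above each bar and no error bars because each group has 1 library. All 9 genes have their 2 highest bars in E(-)T(-) and E(+)T(-), and Klre1 has 0 reads in both tumor-bearing libraries.

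Among the activating receptors, Ncr1, the natural cytotoxicity receptor NKp46, had 165 and 132 reads in tumor-free E(-)T(-) and E(+)T(-), and 27 and 14 in tumor-bearing E(-)T(+) and E(+)T(+). Its log2 values were 7.14, 6.93, 4.94 and 4.13. The tumor-bearing libraries were both far below the tumor-free ones, and E(+)T(+) was the lowest of the 4. Klrb1c, the NK1.1 antigen, had 62 and 65 reads in tumor-free E(-)T(-) and E(+)T(-), and 3 and 0 in tumor-bearing E(-)T(+) and E(+)T(+). It was thus at or under the 3-read floor in both tumor-bearing libraries. Antibodies to NK1.1 do not stain the cells of some strains, BALB/c among them, and these reads report the transcript only. Klrk1, the NKG2D receptor for stress ligands, had 39 and 67 reads in tumor-free E(-)T(-) and E(+)T(-), and 21 and 5 in tumor-bearing E(-)T(+) and E(+)T(+). Here the E(-)T(+) library differed from E(-)T(-) by no more than counting error, and the low value was that of E(+)T(+).

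Among the receptors with inhibitory partners or functions, Klrd1, the CD94 chain that pairs with NKG2 proteins, had 99 and 62 reads in tumor-free E(-)T(-) and E(+)T(-), and 7 and 16 in tumor-bearing E(-)T(+) and E(+)T(+). The lowest library was E(-)T(+), not E(+)T(+). Klre1, a lectin-like receptor that pairs with other Klr chains, had 9 and 5 reads in tumor-free E(-)T(-) and E(+)T(-) and 0 in each of the tumor-bearing libraries, and its mean normalized count of 3.13 was under the minimum of 4 used for counts over all genes. Klrg1, a cadherin-binding receptor of mature NK cells and effector T cells, had 74 and 92 reads in tumor-free E(-)T(-) and E(+)T(-), and 36 and 25 in tumor-bearing E(-)T(+) and E(+)T(+). Its spread across the libraries was among the narrower ones of the list.

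Both T-box factors were lower in each tumor-bearing library than in either tumor-free one, by different amounts. Eomes had 63 and 58 reads in tumor-free E(-)T(-) and E(+)T(-), and 21 and 16 in tumor-bearing E(-)T(+) and E(+)T(+). Tbx21 had 63 and 70 reads in tumor-free E(-)T(-) and E(+)T(-), and 3 and 5 in tumor-bearing E(-)T(+) and E(+)T(+). The E(-)T(+) library thus kept 43.0% of the E(-)T(-) normalized count of Eomes and 6.27% of that of Tbx21. Nkg7, a granule protein of cytotoxic lymphocytes, had 229 and 169 reads in tumor-free E(-)T(-) and E(+)T(-), and 29 and 68 in tumor-bearing E(-)T(+) and E(+)T(+). It was higher in E(+)T(+) than in E(-)T(+) and lower in both than in either tumor-free library.

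In the order of libraries, every one of the 9 genes placed both tumor-free libraries above both tumor-bearing ones. The step from the lower tumor-free library to the higher tumor-bearing one exceeded counting error for Ncr1, Klrb1c, Klrd1, Klrg1, Eomes, Tbx21 and Nkg7, and did not for Klrk1 and Klre1. Between the tumor-free libraries the step exceeded counting error for Klrk1, Klrd1 and Nkg7. Between the tumor-bearing libraries it did so for Klrk1 and Nkg7, in opposite directions.

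The effect of the tumor without exercise was read from E(-)T(+) against E(-)T(-). All 9 NK genes were lower in E(-)T(+), and 7 of the 9 were lower by 2-fold or more (6 of the 8 that passed the filter on low values). The background was 25.7% of the 15164 tested genes lower by 2-fold or more, and 20.6% higher. The median log2 difference of the 9 was -2.58, or -2.21 with Klre1, which had no reads in E(-)T(+), set to its bound, beside -0.03 over all tested genes. Tbx21 differed by -3.65 on the log2 scale (95% interval of the read ratio -6.34 to -2.41), Klrb1c by -3.63 (-6.32 to -2.39) and Klrd1 by -3.29 (-4.81 to -2.36). These are a transcription factor and a pair of receptors. Nkg7 differed by -2.58 (-3.23 to -2.05), Ncr1 by -2.21 (-2.89 to -1.65) and Eomes by -1.18 (-2.01 to -0.49). Klre1 was 2.33-fold lower with the E(-)T(+) library set to a floor of 3 reads, and the upper end of its interval was -0.61. The last genes were nearer to 0. Klrg1 differed by -0.66 (-1.29 to -0.08), short of 2-fold, and Klrk1 by -0.51 (-1.37 to 0.27), with an interval that held 0.

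The effect of the tumor with exercise was read from E(+)T(+) against E(+)T(-). Again all 9 genes were lower in the tumor-bearing library, and 8 of the 9 passed 2-fold (7 of the 8 filtered), beside a background of 13.0% of tested genes lower and 14.9% higher. Klre1, counted among them by its fitted value, was 1.31-fold lower with E(+)T(+) set to the floor, which does not reach 2-fold. Its interval, with an upper end of 0.47, held 0. Klrb1c was 17.0-fold lower on the same terms, and the upper end of its interval was -3.75. Tbx21 differed by -3.23 (-5.13 to -2.17), Klrk1 by -3.17 (-5.07 to -2.10) and Ncr1 by -2.80 (-3.80 to -2.09). Klrk1, which had the difference nearest 0 without exercise, was thus among the genes with the largest differences with it. Klrd1 differed by -1.55 (-2.50 to -0.80), Klrg1 by -1.50 (-2.23 to -0.88) and Eomes by -1.46 (-2.41 to -0.69). Nkg7 had the difference nearest 0, -0.96 (-1.39 to -0.55), which became -1.36 under scaling by library totals. The median of the 9 was -2.41, or -1.55 with Klrb1c and Klre1 at their bounds, beside 0.00 over all tested genes.

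**Figure D2:**
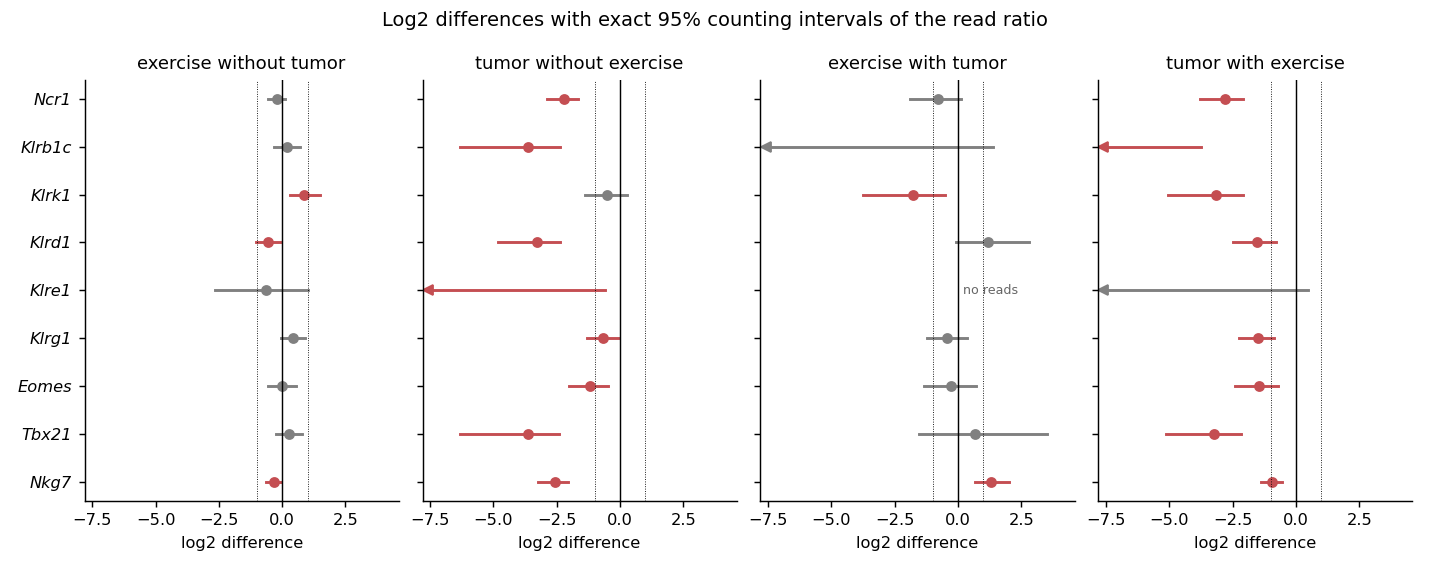
Log2 difference of each NK cell gene (points, horizontal axis) with the exact 95% counting interval of the read ratio (lines) in 4 comparisons, red where the interval excludes 0, with arrows and no point where a library had 0 reads, and dotted lines at 2-fold. Most lines lie left of 0 in both tumor panels, while in the panel of exercise with tumor only Klrk1 (lower) and Nkg7 (higher) exclude 0.

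Exercise in healthy mice was read from E(+)T(-) against E(-)T(-). No NK gene reached 2-fold (0 of 9), where 5.28% of tested genes were higher and 4.70% lower by that limit, and the median of the 9 was -0.01. Klrk1 was the highest, with a difference of 0.88 (0.30 to 1.5). Klrd1 differed by -0.56 (-1.04 to -0.09) and Nkg7 by -0.33 (-0.62 to -0.03), and for these 3 genes the interval excluded 0. The remaining 6 had intervals that held 0. Among them Ncr1 differed by -0.21 (-0.55 to 0.13), Eomes by -0.01 (-0.55 to 0.53), Tbx21 by 0.26 (-0.25 to 0.78) and Klrg1 by 0.42 (-0.03 to 0.89). A 2-fold difference in either direction lay outside the counting intervals of these 4 genes.

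Exercise in tumor-bearing mice, E(+)T(+) against E(-)T(+), split the list. Nkg7 was higher in E(+)T(+) by 1.29 (0.68 to 2.0), 68 reads against 29, and Klrk1 was lower by 2-fold or more, with a difference of -1.79 (-3.74 to -0.53), 5 reads against 21. Klrd1 differed by 1.18, past 2-fold, but its interval of -0.08 to 2.81 held 0. Klrb1c had 0 reads against 3, too few for a fold. By fitted values 4 of the 9 genes, these 4, were past 2-fold, 2 in each direction, beside a background of 24.3% of tested genes higher and 17.7% lower. Under scaling by library totals, which moved the all-gene median to -0.59, Nkg7 differed by 0.70 and Klrd1 by 0.62, both short of 2-fold, and Ncr1 and Klrg1 by -1.39 and -1.01. Under the deposited scaling Ncr1 differed by -0.81 (-1.90 to 0.13), Klrg1 by -0.42 (-1.23 to 0.34), Eomes by -0.28 (-1.33 to 0.71) and Tbx21 by 0.68 (-1.53 to 3.52), all with intervals that held 0. The median of the 9 was -0.28, beside 0.01 over all tested genes.

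The mice with both treatments, E(+)T(+), were also set against those with neither, E(-)T(-). All 9 genes were lower by 2-fold or more by fitted value, and all 9 intervals excluded 0, beside 14.4% of tested genes lower and 14.8% higher. Ncr1 differed by -3.01, Tbx21 by -2.97, Klrk1 by -2.29, Klrd1 by -2.11, Eomes by -1.46, Nkg7 by -1.28 and Klrg1 by -1.08. With E(+)T(+) set to the floor, Klrb1c was 15.0-fold lower and Klre1 2.18-fold lower. The upper ends of their intervals were -3.57 and -0.52. These comparisons share libraries with those above and are not separate evidence.

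**Figure D3:**
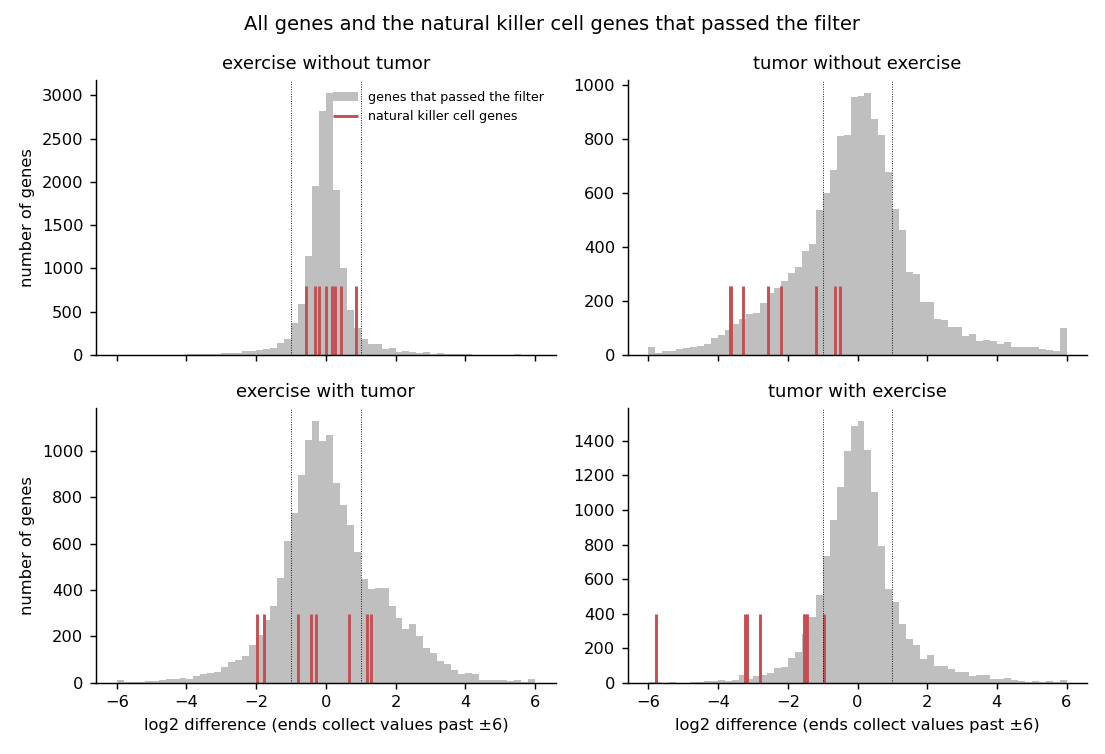
Number of genes (vertical axis) at each log2 difference (horizontal axis) among the 15164 tested genes (grey), with the 8 NK cell genes that passed the filter as red lines, in 4 comparisons, and dotted lines at 2-fold. The red lines sit around 0 for exercise without tumor, from -3.65 to -0.51 for tumor without exercise, and on both sides of 0 for exercise with tumor.

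A limma fit of the 4 libraries with a term for tumor and a term for exercise used the single residual degree of freedom that the design leaves. Its spread is the departure of the 4 libraries from additive effects, partly pooled over genes. It does not measure variation between mice, so the p values of this fit are no replicate check. In the tumor term, Klrb1c had a coefficient of -4.71 (SE 1.16) and an adjusted p of 0.0387, and it was the only one of the 8 tested NK genes below an adjusted p of 0.05, where 1.38% of all tested genes were called lower. The call did not hold with median-of-ratios size factors (adjusted p of 0.0551), and it includes a library with 0 reads. Tbx21 had a coefficient of -3.44 and an adjusted p of 0.0752 in limma, and Ncr1 -2.51 and 0.0862. The other 5 genes had adjusted p values between 0.173 and 0.525, and 5 of the 8 had an unadjusted p under 0.05, as did 17.8% of all tested genes. In the exercise term none of the 8 NK genes and 0 of 15164 genes (0.0%) were called by limma, with 753 genes (4.97%) and none of the 8 at an unadjusted p under 0.05. The fit gives each gene a single tumor difference, whereas for Klrk1 the separate differences were -0.51 without and -3.17 with exercise, and for Nkg7 -2.58 and -0.96.

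The NK genes were then read against leukocytes as a whole and against T cells. Ptprc (CD45), present on all leukocytes, had 1384 and 1349 reads in tumor-free E(-)T(-) and E(+)T(-), and 360 and 1857 in tumor-bearing E(-)T(+) and E(+)T(+). In normalized counts it stood at 105%, 33.6% and 185% of E(-)T(-) in the last 3. The 19 T cell genes summed to 82.8%, 24.1% and 67.5% of E(-)T(-). NK and T cell sums were thus at like levels in E(-)T(+), while in E(+)T(+) the T cell sum stood at 67.5% and the NK sum at 25.6%. The T cell genes were not uniform there. Of the 18 that passed the filter, 6 were lower by 2-fold or more in E(+)T(+) against E(-)T(-), with differences from -3.11 to 0.66. All 8 filtered NK genes were lower by that limit.

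**Figure D4:**
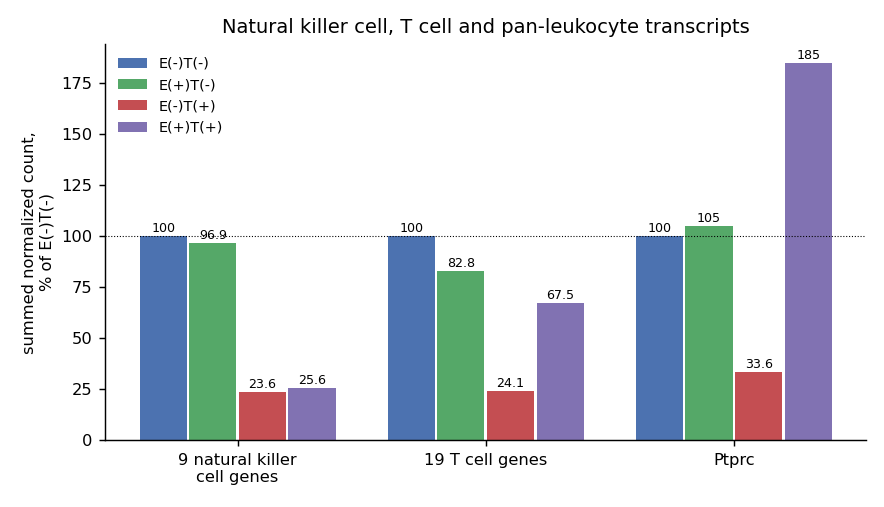
Summed normalized count (vertical axis, percent of E(-)T(-)) of the 9 NK cell genes, 19 T cell genes and Ptprc in the 4 libraries (colors), with no error bars because each group has 1 library. In E(+)T(+) the T cell genes stand at 67.5% and Ptprc at 185%, and the NK cell genes at 25.6%.

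In the comparison of exercise with tumor, Ptprc differed by 2.46 on the log2 scale and the T cell genes by a median of 1.67 (1.40 with genes at 0 reads set to their bound). Klre1 and Klrb1c were at or under the floor in both libraries and have no fold here. The 7 other NK genes all lay below both, by a median of -2.74 against Ptprc and -1.68 against the T cell median, with genes at 0 reads at their bound. The counting intervals of Nkg7, Klrd1 and Tbx21 held the T cell median, and those of Klrd1 and Tbx21 also held the Ptprc difference. The T cell genes themselves ran from -0.47 to 3.94 by fitted value. For tumor with exercise, on the same terms, all 9 lay below Ptprc (median -2.36) and 8 of the 9 below the T cell median (-1.0), while the bound of Klre1 does not settle its place. For tumor without exercise the NK genes did not stand apart from the T cell genes. Ptprc differed there by -1.57 and the T cell median was -2.70 at the bound, 5 of the 9 NK genes lay below Ptprc and 3 above it, and 3 lay below the T cell median and 5 above it. The bound of Klre1 does not settle its place in either.

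Other cells moved with these comparisons. Neutrophil markers (9 genes) summed to 3940 and 12200 normalized counts in tumor-free E(-)T(-) and E(+)T(-), and to 11400 and 208000 in tumor-bearing E(-)T(+) and E(+)T(+), and none of the 9 was at 0 reads in any library. B cell markers (9 genes) summed to 1110, 883, 14.8 and 411, with 6 of the 9 at 0 reads in E(-)T(+). Lung endothelial markers (8 genes) summed to 23600, 24500, 2590 and 19800, and lung epithelial markers (10 genes) to 651000, 792000, 150000 and 709000. E(-)T(+) was therefore low in NK, T, B, endothelial and epithelial transcripts alike and held the most tumor-associated reads. In E(+)T(+) the endothelial and epithelial sums were near those of the tumor-free libraries, and the NK and B cell sums were not. The part that the makeup of the tissue piece had in the NK differences was not tested.

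Genes around the 9 in NK biology were read from lists by role, leaving out the 9 themselves and genes under the filter. Of 9 further activating receptors and co-receptors, 7 were lower and 2 higher by 2-fold or more in tumor without exercise (median -1.43), and 5 were higher and none lower in exercise with tumor (median 1.54, or 1.64 without 1 gene at the floor in both). Cd7 had 93 and 52 reads in tumor-free E(-)T(-) and E(+)T(-), and 3 and 40 in tumor-bearing E(-)T(+) and E(+)T(+). Slamf7 (CRACC), a self-ligand receptor of NK and other cells, had 81, 59, 5 and 67 reads in the same order, and Cd226 (DNAM-1) had 29, 60, 5 and 101. These 3 were named for the size of their differences, and the list was mixed in E(+)T(+) against E(-)T(-), with 3 of the 9 higher and 2 lower by 2-fold or more. Cd160, an activating receptor of NK and T cells chosen after its values were seen, had 36, 30, 5 and 8 reads and was low in both tumor-bearing libraries. Cd7, Slamf7 and Cd226 are also made by T cells or myeloid cells.

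Of 10 further receptors grouped here as inhibitory, Klri2 among them, 6 were lower and none higher by 2-fold in tumor without exercise (median -1.10). In exercise with tumor 6 were higher and none lower (median 1.33). The grouping does not show that each of them acts as an inhibitory receptor. Klrc1, the NKG2A partner of Klrd1, had 108 and 72 reads in tumor-free E(-)T(-) and E(+)T(-), and 32 and 28 in tumor-bearing E(-)T(+) and E(+)T(+), a pattern with no return in E(+)T(+). Among Ly49 receptors, Klra3 had 86, 57, 11 and 31 reads, Klra9 had 35, 42, 10 and 29, and Klra17 had 32, 51, 18 and 177. Klra17 was thus highest in E(+)T(+), unlike each of the 9 genes, and it is also known from myeloid cells. The Ly49 genes are near-identical copies and vary between strains, so that reads may have been split between them.

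Of 19 adaptor and signaling genes, 9 were lower and 1 higher in tumor without exercise (median -0.78), and 15 were higher and none lower in exercise with tumor (median 1.68). Lck had 196 and 150 reads in tumor-free E(-)T(-) and E(+)T(-), and 14 and 83 in tumor-bearing E(-)T(+) and E(+)T(+), and Cd247 (CD3 zeta) had 146, 87, 16 and 45. Both are also among the T cell genes above, and both were partway between E(-)T(+) and E(-)T(-) in E(+)T(+). Zap70 had 51, 54, 7 and 43 reads, and Syk, the related kinase used by NK, B and myeloid cells, had 328, 355, 85 and 670. Of 14 transcription factors, 6 were lower and 2 higher in tumor without exercise (median -0.98), and 7 were higher and none lower in exercise with tumor (median 0.97). Stat4, which relays IL-12, had 43, 40, 5 and 24 reads and Ikzf3 (Aiolos) had 42, 70, 5 and 8. Nfil3, which NK cell development requires, had 112, 196, 358 and 1336 reads, higher in the tumor-bearing libraries where Eomes and Tbx21 were low. Zbtb16 (PLZF) had 694, 790, 160 and 638.

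Of 15 granule and killing genes, 10 were lower and 2 higher in tumor without exercise (median -1.31), and 8 were higher and 3 lower in exercise with tumor (median 1.23, or 1.43 without 2 genes at the floor in both). Tnfsf10 (TRAIL), a death ligand, had 677 and 382 reads in tumor-free E(-)T(-) and E(+)T(-), and 16 and 72 in tumor-bearing E(-)T(+) and E(+)T(+). Unc13d and Rab27a, which dock and prime granules in many cells, had 251, 231, 20 and 155 reads and 442, 266, 80 and 293 reads. Tnfsf10, Unc13d and Rab27a were lowest in E(-)T(+), and in E(+)T(+) only Tnfsf10 was below E(-)T(-) by more than counting error once library sizes were taken into account. The killing effectors, chosen after their values were seen, did not share one pattern. Gzma (granzyme A) had 1157, 739, 362 and 245 reads, in the order of Ncr1. Gzmb (granzyme B) had 50, 17, 117 and 35 reads and Prf1 (perforin) 1, 7, 15 and 2, both highest in E(-)T(+), with differences in exercise with tumor of -1.62 (-2.24 to -1.09) and -2.33 (-5.99 to -0.71). Of 17 cytokine receptors and outputs, 7 were lower and 4 higher in tumor without exercise (median -0.53, or -0.71 at the bound), and 6 were higher and 3 lower in exercise with tumor (median 0.87, or 0.51 at the bound). Il18r1 had 809, 1048, 36 and 203 reads, and its partner chain Il18rap had 77, 106, 493 and 212, so that the chains of this receptor went in opposite directions in E(-)T(+). Ccl5, a chemokine of NK and T cells, had 1442, 742, 227 and 419 reads, and Ccl3 had 25, 4, 10 and 50. Il15ra, which presents the NK survival factor IL-15, had 42, 58, 68 and 18 reads.

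Of 18 maturation and trafficking genes, 12 were lower and 2 higher in tumor without exercise (median -1.76), and 10 were higher and 1 lower in exercise with tumor (median 1.25). Cxcr6, a homing receptor of resident NK and T cells, had 173 and 95 reads in tumor-free E(-)T(-) and E(+)T(-), and 2 and 11 in tumor-bearing E(-)T(+) and E(+)T(+), near the order of the 9 genes. Itgax (CD11c) had 573, 270, 17 and 149 reads, and Itgam (CD11b), shared with neutrophils and macrophages, had 41, 91, 607 and 324. Ly6c2, also high in monocytes, had 543, 708, 240 and 2429 reads. Itgax thus had the tumor-free libraries above the tumor-bearing ones, while Itgam and Ly6c2 did not. Of 15 ligands of NK receptors, 7 were lower and 5 higher in tumor without exercise (median -0.33), and 6 were higher and 3 lower in exercise with tumor (median 0.46). H60b, a ligand of NKG2D, had 6, 16, 99 and 10 reads, and H60c, another, had 50, 44, 7 and 15. The cadherins bound by KLRG1 also differed, with Cdh2 at 31, 24, 596 and 52 reads and Cdh1 at 3917, 5171, 972 and 3183.

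**Figure D5:**
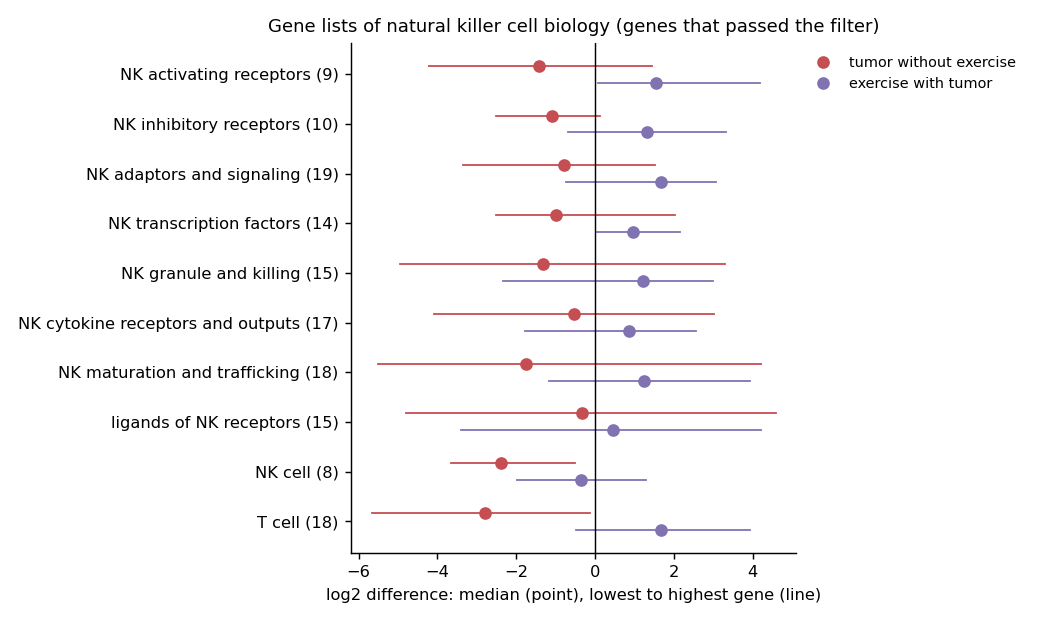
Median (points) and lowest to highest gene (lines) of the log2 difference (horizontal axis) in 8 lists of NK biology without the 9 genes, in the NK cell genes and in the T cell genes, for tumor without exercise (red) and exercise with tumor (purple), with the number of genes that passed the filter in brackets. The medians of the 8 lists and of the T cell genes are above 0 for exercise with tumor, and that of the 8 NK cell genes that passed the filter is -0.35 by fitted values, or -0.28 without Klrb1c, which has too few reads for a fold.

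The background for these lists is the one given above, with a median of -0.03 in tumor without exercise and 0.01 in exercise with tumor over all tested genes. Most of the named list genes are also used by T cells or myeloid cells.

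Among the 9 genes, the closest profiles over the 4 libraries, each gene centred on its own mean log2 value, were those of Klrg1 and Eomes (Euclidean distance 0.40), followed by Klrd1 and Nkg7 (0.68). Klrd1 and Nkg7 shared the order E(-)T(-), E(+)T(-), E(+)T(+), E(-)T(+). Of genes outside the list with 50 or more normalized counts on average, the 5 nearest to the median NK profile were Zfp322a (distance 0.117), Armcx1 (0.127), Prr18 (0.147), Mospd2 (0.206) and Nabp1 (0.206). Zfp322a, for example, had 650 and 512 reads in tumor-free E(-)T(-) and E(+)T(-), and 99 and 86 in tumor-bearing E(-)T(+) and E(+)T(+). With 4 libraries such likeness describes these libraries only.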

How the data were processed

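RNA of 4 lung libraries was measured by QuantSeq 3' mRNA-Seq, which reads the ends of transcripts. The authors aligned reads with Bowtie2, took read counts of genes from bedtools coverage and applied edgeR's quantile normalization. The build in the submitters' processing notes is mm10. Tool versions and the use of strand are not given in the sources used here, so that overlapping genes and close copies may share reads. The deposited values are log2 values of the authors, found to be log2(normalized count + 1) at 3 decimals. Strain differences from the C57BL/6J reference could affect counts of polymorphic genes.

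Whole reads were recovered by inverting the negative binomial quantile adjustment, with 100% of values reproduced within 0.001, 99.6% equal at 3 decimals and 94.6% resolved to 1 read. Differences are of the deposited log2 values, so the pseudocount of 1 makes those of low genes too small. Exact 95% Clopper-Pearson intervals of the read ratio were scaled by the effective library sizes. Where a library had 0 reads, a fold was computed against a floor of 3 reads per library. Values at this floor are called at the bound, and they are not ends of the counting intervals. With 1 library per group, pairs of groups were not tested. A limit of 2-fold was used, and counts over all genes took the 15164 genes with a mean normalized count of at least 4. limma 3.58.1 (R 4.3.3) fitted a tumor and an exercise term to the log2 values with a trend on mean expression. The Benjamini-Hochberg adjustment was over the same 15164 genes. Tables were handled with Python 3.11.15.

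The 9 genes, the gene lists and the markers were chosen with earlier results of these data known. Named list genes had a mean normalized count of at least 20 and, in each list, the 3 largest differences in tumor without exercise and in exercise with tumor, of which 1 gene is not reported here. The 5 genes nearest the median profile had a mean of at least 50. Alternatives were the scaling (library totals, totals without hemoglobin genes, median-of-ratios size factors), a pseudocount of 4, other filters, and removal of an E(-)T(+) share from E(+)T(-).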

Additional observations from a re-analysis of the deposited data

Results flagged for a closer look

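For a pair of the 9 genes the exercise difference pointed one way in healthy mice and the other way in tumor-bearing mice, with both counting intervals excluding 0. Klrk1 (NKG2D) differed by 0.88 on the log2 scale in E(+)T(-) against E(-)T(-), 67 reads against 39, and by -1.79 in E(+)T(+) against E(-)T(+), 5 reads against 21. Nkg7 differed by -0.33 in healthy mice, 169 reads against 229, and by 1.29 in tumor-bearing mice, 68 reads against 29. The difference between the exercise differences was -2.66 for Klrk1 and 1.62 for Nkg7, and with 1 library per group it was not tested.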

How the results depend on the processing

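The 9 genes gave 198 values under the alternatives run, and 189 of them kept their side of the 2-fold limit without turning in direction. These include Klre1 in exercise with tumor, which had no reads in either library and no direction to keep. Its fitted value of 0.03 became 0.00 under each alternative scaling. None of the differences called at 2-fold reversed. The 198 values include those with an E(-)T(+) share taken out of E(+)T(-), a removal that could hardly move the 9 genes. The difference of Eomes for exercise without tumor, -0.01 as reported, was 0.02 with median-of-ratios size factors. Of the 8 others, 4 lost and 4 gained the 2-fold call. In exercise with tumor, a pseudocount of 4 left 2 genes past 2-fold in place of 4, with Klrb1c at -0.84 and Klrd1 at 0.96. Scaling by library totals alone gave 4 again, Klrb1c at -2.28 and Klrk1 at -2.35 as before, with Ncr1 at -1.39 and Klrg1 at -1.01 in place of Klrd1 at 0.62 and Nkg7 at 0.70. In tumor with exercise, Nkg7 passed the limit at -1.36 with library totals and at -1.04 with totals without hemoglobin genes. Library totals moved the median of all tested genes to -0.59 in exercise with tumor, -0.41 in tumor with exercise and -0.52 in tumor plus exercise, and totals without hemoglobin genes moved it to -0.13 in tumor without exercise and -0.20 in tumor plus exercise.

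In limma, the tumor term called 495 genes with the filter, 1284 with no filter and 310 with median-of-ratios size factors, and the NK genes among them numbered 1, 3 and 0. The exercise term called 0 genes with the filter, 58 with no filter and 0 with median-of-ratios size factors, with none of the 9 among them. The causes were not tested. Genes past 2-fold in exercise without tumor numbered 1513 with the filter, 2606 without it and 200 with a minimum of 100 normalized counts on average. The last filter gave 3601 in tumor without exercise, 3171 in exercise with tumor, 1686 in tumor with exercise and 1828 in tumor plus exercise. No paired analysis was possible because each group has 1 library. The counts of 0 to 5 reads in the tumor-bearing libraries for Klrb1c, Klre1 and Tbx21 limit the size of their differences, and no value has a replicate.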
